A study of Mus musculus with 51 samples.

Results

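Glucose, fructose and urate enter epithelial cells through carriers of 2 gene families, and 6 of these carrier genes were followed here across sorted mouse epithelial cells. They are Slc5a1, Slc2a1, Slc2a2, Slc2a3, Slc2a5 and Slc2a9, taken by gene name from a table of read counts for 52636 genes, and each was found once. The table holds total RNA sequencing of 51 libraries in 14 groups.

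All oesophageal groups but WT and the embryo carried SmoM2, an always-active form of the Hedgehog transducer Smoothened, under a Krt5 driver that acts in basal squamous cells. Krt5-SmoM2-Krt8YFP cells of mixed background were sorted as EpCAM-high into reporter-positive cells (K8YFP+, n = 3) and reporter-negative cells (K8YFP-, n = 3). Sox9cKO cells (n = 4) were Krt5-SmoM2-Sox9fl/fl and EpCAM-high, and SmoM2 cells (n = 6) were Krt5-SmoM2 on CD1 and EpCAM-high. A time series of Krt5-SmoM2 cells was labelled 3w or 7w and sorted as EpCAM-high or EpCAM-low (n = 4 in each of its groups), and the labels do not say from what the weeks were counted. Embryonic oesophagus (E13.5, n = 2) came from Krt8YFP embryos and was gated on EpCAM and YFP. The columnar part of the squamocolumnar junction (n = 4, EpCAM-high with YFP) and its squamous part (n = 3, EpCAM-high without YFP) came from Krt8YFP mice, as did gut (n = 2) and stomach (n = 2), both gated on YFP. WT cells (n = 6) came from CD1 oesophagus and were EpCAM-low, so that genotype and gate differ together between SmoM2 and WT. The labels give no age beyond these, no strain for the junction squamous, time-series and Sox9cKO groups (the other Krt8YFP groups are of mixed background), and do not say whether libraries came from separate animals, so p-values measure the spread between libraries.

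Library totals lay between 1606571 counts in K8YFP+ 2 and 12262365 counts in SmoM2 6. The chi-square per degree of freedom was 1.92 between WT 3 and WT 5 and 2.47 between WT 4 and WT 6, against at least 11.0 in the other WT pairs. Within each of these pairs the raw library names differ only in the leading number (5 in WT 3 and 4, 6 in WT 5 and 6), so that these 4 libraries may be repeat runs of 2 samples, and n = 6 counts libraries. Comparisons with WT were therefore repeated with these pairs summed (n = 4), which changed no call among the 6 genes. The leading number is 4 in WT 1 and 2, and no SmoM2 library shares a number with WT. It is 1 in SmoM2 1 and 2 in the other SmoM2 libraries and in Sox9cKO. The chi-square per degree of freedom was at least 24.65 in pairs with SmoM2 1 and at most 18.38 in the other SmoM2 pairs. Levels are given as CPM, counts scaled to the library total. Folds also use TMM scaling, a further factor per library. A fold can thus differ from the CPM ratio in size and, if small, in sign. The gates are visible in the RNA of some groups. Epcam read 246 to 355 CPM in SmoM2 and 139 to 198 in WT. Of the other EpCAM-high groups, K8YFP+ (148 to 310 CPM) and junction squamous (183 to 224) overlap WT, and the rest lie above it. In K8YFP- cells Epcam read 223 to 356 CPM. Krt8 read 10.2 to 39.8 CPM in K8YFP+ and 0.235 to 3.32 in K8YFP-. Sox9 read 45.7 to 51.7 CPM in 3 Sox9cKO libraries and 127 in the library labelled Sox9cKO 3, against 72.7 to 194 in SmoM2. Enterocyte markers summed to 9516 CPM in Gut 1 and 2808 in Gut 2, and gastric markers to 22260 to 40900 CPM in junction columnar cells and 51440 to 53750 in stomach.

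The 2 families work differently. Slc5a1 encodes SGLT1, which pulls glucose and galactose into the cell together with sodium and is best known from the brush border of the small intestine, where the gradient is kept by the sodium pump. The SLC2 carriers (GLUT proteins) let sugar flow down its gradient. Slc2a1 (GLUT1) serves basal glucose uptake in many cells, including the basal layer of stratified epithelia. Slc2a2 (GLUT2) is a low-affinity carrier of liver, pancreatic beta cells and absorptive enterocytes, Slc2a3 (GLUT3) a high-affinity carrier best known from neurons, Slc2a5 (GLUT5) the intestinal fructose carrier, and Slc2a9 (GLUT9) carries urate.

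On GRCm38 the genes are protein-coding and lie apart. Slc5a1 (ENSMUSG00000011034) is on chromosome 5 at 33104219 to 33162870, plus strand, and Slc2a9 (ENSMUSG00000005107) is on the same chromosome at 38349273 to 38503143, minus strand. On the plus strand of chromosome 4 are Slc2a1 (ENSMUSG00000028645) at 119108711 to 119137983 and Slc2a5 (ENSMUSG00000028976) at 150119283 to 150144169. Slc2a2 (ENSMUSG00000027690) is on chromosome 3 at 28697903 to 28731359, plus strand, and Slc2a3 (ENSMUSG00000003153) on chromosome 6 at 122727809 to 122801640, minus strand. The promoters of the pair that carries most of the signal, Slc5a1 and Slc2a1, and of the intestinal pair Slc2a2 and Slc2a5 are shown from 250 bases before to 50 after the RefSeq start (GRCm38.p6). RefSeq promoters were matched for 5 of the 6 genes, and Slc2a3 is named only. Capitals mark every match, on either strand, to ACGTG (the core of hypoxia response elements), GGGCGG (GC box), CCAAT and TATAAA.
Slc5a1 promoter, chr5:33103969-33104268, plus strand: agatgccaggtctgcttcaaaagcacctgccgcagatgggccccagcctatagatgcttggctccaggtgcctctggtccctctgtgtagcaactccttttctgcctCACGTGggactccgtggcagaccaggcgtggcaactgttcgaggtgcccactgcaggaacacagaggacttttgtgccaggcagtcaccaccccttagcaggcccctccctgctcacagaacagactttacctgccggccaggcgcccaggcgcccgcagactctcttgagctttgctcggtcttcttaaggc
Slc2a1 promoter, chr4:119108495-119108794, plus strand: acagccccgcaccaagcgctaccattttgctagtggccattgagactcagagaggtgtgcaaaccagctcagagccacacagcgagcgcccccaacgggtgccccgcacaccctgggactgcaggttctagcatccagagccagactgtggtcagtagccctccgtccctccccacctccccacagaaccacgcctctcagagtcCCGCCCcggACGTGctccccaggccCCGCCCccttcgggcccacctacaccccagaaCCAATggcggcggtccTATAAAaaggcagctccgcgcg
Slc2a2 promoter, chr3:28697653-28697952, plus strand: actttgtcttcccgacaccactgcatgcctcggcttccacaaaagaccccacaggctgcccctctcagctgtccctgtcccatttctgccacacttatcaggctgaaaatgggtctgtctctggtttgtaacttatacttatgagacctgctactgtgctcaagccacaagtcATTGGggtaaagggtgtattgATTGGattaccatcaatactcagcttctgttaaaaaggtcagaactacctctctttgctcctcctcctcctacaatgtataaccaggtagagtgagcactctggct
Slc2a5 promoter, chr4:150119094-150119393, plus strand: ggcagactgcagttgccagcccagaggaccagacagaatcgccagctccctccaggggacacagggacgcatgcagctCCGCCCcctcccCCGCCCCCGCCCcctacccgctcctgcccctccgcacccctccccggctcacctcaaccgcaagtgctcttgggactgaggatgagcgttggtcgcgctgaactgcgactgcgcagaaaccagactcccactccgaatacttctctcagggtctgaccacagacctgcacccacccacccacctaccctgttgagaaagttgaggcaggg
The Slc5a1 window holds ACGTG on both strands in 1 palindrome whose first base lies at -143, counted from the start. The Slc2a1 window holds ACGTG at -36 between GC boxes at -45 and -20, with CCAAT at 13 and TATAAA at 29. Slc2a2 has CCAAT on the minus strand at -77 and -56, and Slc2a5 has 3 GC boxes on the minus strand, at -172, -160 and -154, the last 2 next to each other. No window of the 5 genes holds the GLI core GGTGGTC, the letters bound by the transcription factors of the Hedgehog pathway, which says only that these letters are not in these windows. Of 32851 mouse promoters of the same length, 19.6% hold ACGTG, 35.7% GGGCGG, 37.4% CCAAT, 13.6% TATAAA and 2.8% GGTGGTC.

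Slc5a1 and Slc2a1 made up most of the transporter RNA. Over all libraries they had 51484 and 151729 counts, against 2320 for Slc2a9, 1118 for Slc2a3, 290 for Slc2a5 and 231 for Slc2a2. Per exon length, as CPM per kilobase (RPKM), Slc2a1 was the largest of the 6 in 12 groups, with 71.4% of their summed mean level in WT and 95.2% in stomach. In the other 2 groups, K8YFP+ and gut, Slc5a1 was the largest, with 63.6% and 63.9% of the sum. The summed level itself was 192 RPKM in K8YFP+ and 162 in K8YFP-, and 160 in SmoM2 against 239 in WT. It was 24.9 RPKM in junction columnar cells, against 199 in junction squamous cells.

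**Figure D1:**
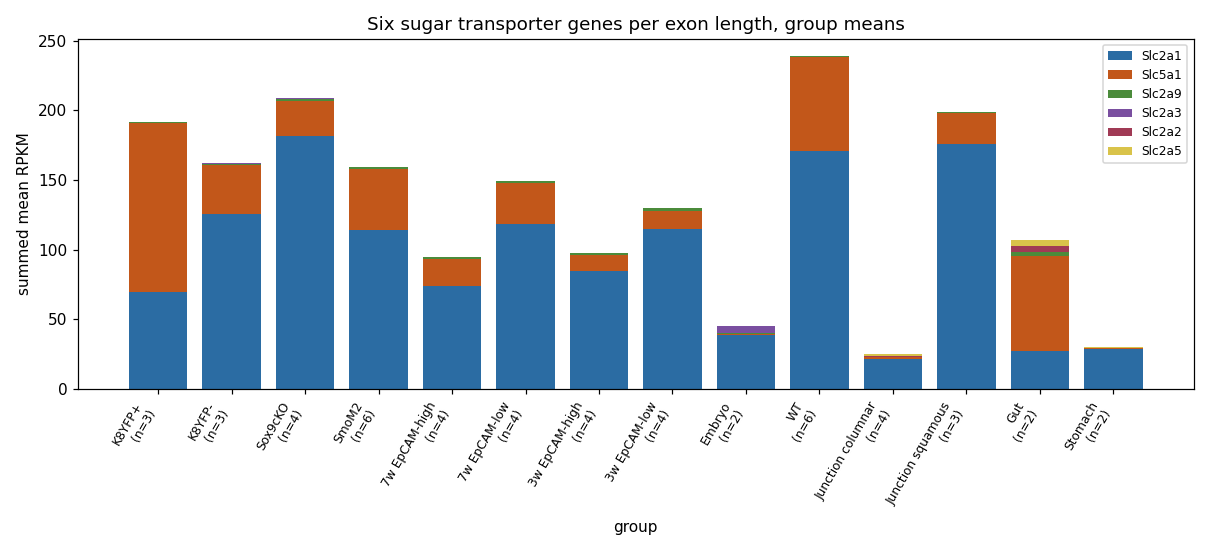
Stacked bars of the mean RPKM (vertical axis) of the 6 transporter genes in each group (horizontal axis, n in brackets). Slc5a1, at 122 RPKM in K8YFP+ and 68.4 in gut, is the tallest segment in these 2 groups, and Slc2a1 is in all others.

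Slc5a1 was highest of all groups in K8YFP+ cells. Its levels there were 469, 546 and 485 CPM, against 167, 181 and 83.1 CPM in K8YFP- cells. The groups do not overlap, and the lowest K8YFP- library is replicate 3. The log2 fold was 2.20 ± 0.30 (SE) with an adjusted p of 0.00447 in edgeR's quasi-likelihood F test, Benjamini-Hochberg adjusted over all genes tested. This is the test behind every fold and adjusted p below, and genes with an adjusted p under 0.05 are said to have passed. Leaving out each library in turn gave folds between 1.90 and 2.36, and the fold was 2.26 with the replicate number as a block (adjusted p = 0.000563). Of the 6 transporters 3 had enough counts to be tested here and 2 passed, against 19.9% of 15598 genes (13.1% higher and 6.83% lower).

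Beside this rise, markers of the cells that were sorted moved too. The summed level of 9 squamous differentiation genes, among them the keratin genes Krt4 and Krt13, was 21810 to 32360 CPM in K8YFP+ and 6514 to 8999 CPM in K8YFP-, and 8 of the 9 passed as higher. The summed level of 7 squamous basal genes was 2373 to 3783 CPM in K8YFP+ and 7657 to 11160 in K8YFP-. Fibroblast markers summed to 68.7 to 595 CPM in K8YFP+ and 16.5 to 77.6 in K8YFP-, with 5 of 7 higher. Endothelial markers summed to 23.0 to 111 CPM in K8YFP+ and 10.5 to 16.8 in K8YFP-, neural markers to 59.8 to 85.3 in K8YFP+ and 22.5 to 55.6 in K8YFP-, and gastric markers to 9.99 to 32.4 in K8YFP+ and 5.57 to 9.55 in K8YFP-. None of these 3 sums overlaps. Enterocyte markers, the cells best known for Slc5a1, summed to 0.746, 3.11 and 52.4 CPM in K8YFP+ 1, 2 and 3 and 0.821 to 1.76 in K8YFP-. Slc5a1 read 469, 546 and 485 CPM in these K8YFP+ libraries in the same order. In bulk samples a change in the share of cells of a type and a change in RNA per cell cannot be told apart, and the part of these markers in the fold was not tested.

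**Figure D2:**
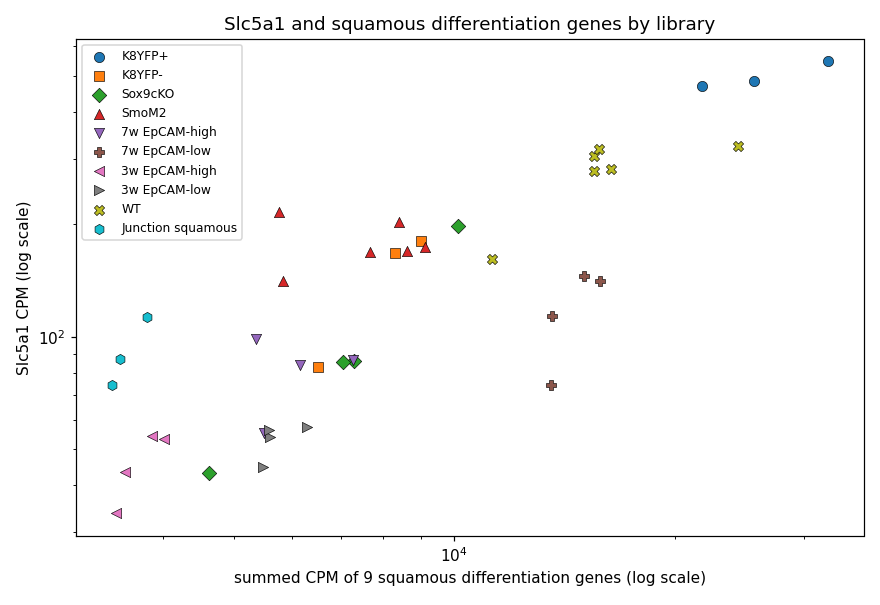
Slc5a1 CPM (vertical, log scale) against the summed CPM of 9 squamous differentiation genes (horizontal, log scale) for each library of the oesophageal and junction squamous groups. K8YFP+ libraries lie at the top right (469 to 546 CPM of Slc5a1), followed by WT, while 3w EpCAM-high libraries lie at the bottom left (33.7 to 54.1 CPM).

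Gut came next, level with WT. Slc5a1 read 326 and 235 CPM in the gut libraries, and 2.62 and 1.57 CPM in stomach, which do not overlap (Gut vs Stomach log2 fold 7.24 ± 0.61, adjusted p = 3.35e-13). K8YFP+ cells exceeded gut in every library, but the fold of 0.77 ± 0.38 did not pass (adjusted p = 0.0914, interval 0.02 to 1.51 before adjustment). Against the other columnar tissues K8YFP+ cells stood far apart. Junction columnar cells had 7.53, 4.76, 6.07 and 5.60 CPM (K8YFP+ vs junction columnar, 6.80 ± 0.40, adjusted p = 3.72e-19), and the fold against stomach was 8.002 ± 0.60 (adjusted p = 3.53e-15). These folds share the K8YFP+ libraries, and the gate differs with the tissue, EpCAM being part of it for K8YFP+ and junction cells alone. Raw names of the junction columnar libraries also start with another number than those of K8YFP+, gut and stomach. Of Slc5a1, Slc2a1 and Slc2a9, 2 passed against junction columnar cells (60.8% of all genes did), all 3 against stomach (50.4%), 2 against gut (49.3%) and 2 in gut against stomach (31.0%). Slc2a2 and Slc2a5 came through the filter on low counts only by gut, junction columnar and stomach libraries and are not counted, and Slc2a3 had at most 4 counts in any of these 4 groups.

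In SmoM2 cells as a whole Slc5a1 was lower than in WT. It read 141 to 215 CPM over 6 SmoM2 libraries (median 172) and 161 to 324 CPM over 6 WT libraries (median 293). The ranges overlap through WT 2, the lowest WT library at 161 CPM, and the other 5 WT libraries lie above every SmoM2 library. The log2 fold was -0.76 ± 0.15 (adjusted p = 0.000766), and -0.76 ± 0.18 with the WT pairs summed (adjusted p = 0.0046). With WT 1 and 2 alone as the WT group it was -0.64 and did not pass (adjusted p = 0.0596), and with WT 3 to 6 alone it was -0.86 (adjusted p = 3.72e-05). The summed squamous differentiation genes were also lower, at 5759 to 9115 CPM in SmoM2 and 11240 to 24440 CPM in WT, with WT 2 again the lowest in WT. Here 3 of the 6 transporters could be tested and all 3 passed, where 49.5% of 16224 genes did (26.2% higher and 23.3% lower).

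The time series held low levels of Slc5a1, with the means of its 3w groups the lowest among the groups that carry SmoM2. EpCAM-high cells had 86.7, 55.4, 98.6 and 83.8 CPM at 7w and 53.1, 54.1, 33.7 and 43.4 CPM at 3w. EpCAM-low cells had 141, 74.5, 114 and 145 CPM at 7w and 57.2, 53.9, 44.9 and 56.2 CPM at 3w. Within both gates the 7w libraries all lie above the 3w ones, 7w EpCAM-high 2 by little. The log2 fold of 7w over 3w was 0.77 ± 0.22 in EpCAM-high cells (adjusted p = 0.00705) and 1.11 ± 0.22 in EpCAM-low cells (adjusted p = 0.000338). Slc5a1 was the 1 transporter of 3 tested to pass over time in either gate, where 41.4% and 38.0% of 17263 genes passed. Squamous differentiation genes moved with the week too, summing to 5360 to 7272 CPM at 7w and 3446 to 4010 at 3w in EpCAM-high cells, and to 13560 to 15790 at 7w and 5480 to 6294 at 3w in EpCAM-low cells. Their part in the folds was not tested. The raw library names start with another number at 3w than at 7w, and what it stands for cannot be told apart from the week.

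Between the gates Slc5a1 gave no firm difference. At 3w the groups overlap, and the fold of EpCAM-high over EpCAM-low was -0.25 ± 0.22 (adjusted p = 0.502, interval -0.69 to 0.18). At 7w they overlap too, and the fold of -0.60 ± 0.21 passed narrowly (adjusted p = 0.0345) but failed when any of 6 of the 8 libraries was left out (EpCAM-high 1, 2 and 4 and EpCAM-low 1, 3 and 4, adjusted p 0.0522 to 0.134) and with all 14 groups fitted together (0.177). The difference between the gate folds, 7w minus 3w, was -0.34 ± 0.31 (adjusted p = 0.716). None of the 3 transporters tested passed for this difference, where 2.31% of genes did. At 3w and at 7w 2 of the 3 passed between gates, both lower in EpCAM-high cells, against 15.2% of genes at 3w (7.37% higher and 7.84% lower) and 32.3% at 7w (15.5% higher and 16.8% lower).

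Against WT all 4 time-series groups were lower in Slc5a1 with no overlap of libraries. The log2 folds were -2.70 ± 0.21 in 3w EpCAM-high, -2.45 ± 0.21 in 3w EpCAM-low, -1.94 ± 0.20 in 7w EpCAM-high and -1.34 ± 0.20 in 7w EpCAM-low cells. The adjusted p was 2.91e-10, 5.25e-09, 2.28e-08 and 1.33e-05 in that order, and the WT libraries are shared. The EpCAM-low groups share the gate of WT. In each of these comparisons 3 of the 6 transporters were tested and all 3 passed, where 58.9% (3w EpCAM-high), 47.4% (3w EpCAM-low), 57.6% (7w EpCAM-high) and 40.4% (7w EpCAM-low) of genes did.

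In Sox9cKO cells the libraries were far apart. Slc5a1 read 86.3, 197, 85.4 and 43.1 CPM, against 141 to 215 CPM in SmoM2. Sox9cKO 2 lies within the SmoM2 range and the other 3 lie below it. The fold of -0.73 ± 0.33 did not pass (adjusted p = 0.239), and without Sox9cKO 2 it was -1.28 and did (adjusted p = 0.00621). Without the library labelled Sox9cKO 3, in which Sox9 lay within the SmoM2 range, it was -0.66 (adjusted p = 0.411). Squamous differentiation genes summed to 10110 CPM in Sox9cKO 2, the highest of its group, and to 4620 CPM in Sox9cKO 4, which was lowest in Slc5a1. In this comparison 3 transporters were tested and 1 passed, against 2.66% of 17047 genes (1.18% higher and 1.48% lower).

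At the junction Slc5a1 was higher on the squamous side. The raw library names start with another number there than on the columnar side. What it stands for cannot be told apart from the side. Columnar cells had the 4.76 to 7.53 CPM given above, and squamous cells had 74.2, 87.0 and 113 CPM (log2 fold -4.23 ± 0.18, adjusted p = 2.28e-09). Slc5a1 and Slc2a1 both passed as lower in columnar cells, where 74.4% of 17185 genes passed (39.2% higher and 35.2% lower). Slc2a2 and Slc2a5 came through the filter on low counts only by their level in columnar cells, and Slc2a9 by its level in squamous cells. These genes are left out of this tally. Immune markers also differed, summing to 187 to 423 CPM in columnar and 17.1 to 27.1 CPM in squamous cells, and their part in the folds was not tested. Embryonic oesophagus was lower still, at 3.05 and 0.641 CPM, with a fold of -7.74 ± 0.56 against WT (adjusted p = 9.17e-16). Of Slc5a1, Slc2a1 and Slc2a9, 2 passed in that comparison, against 64.0% of genes. Slc2a2 and Slc2a5 are again not counted, and the level of Slc2a3 rests on Embryo 1, as given below.

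**Figure D3:**
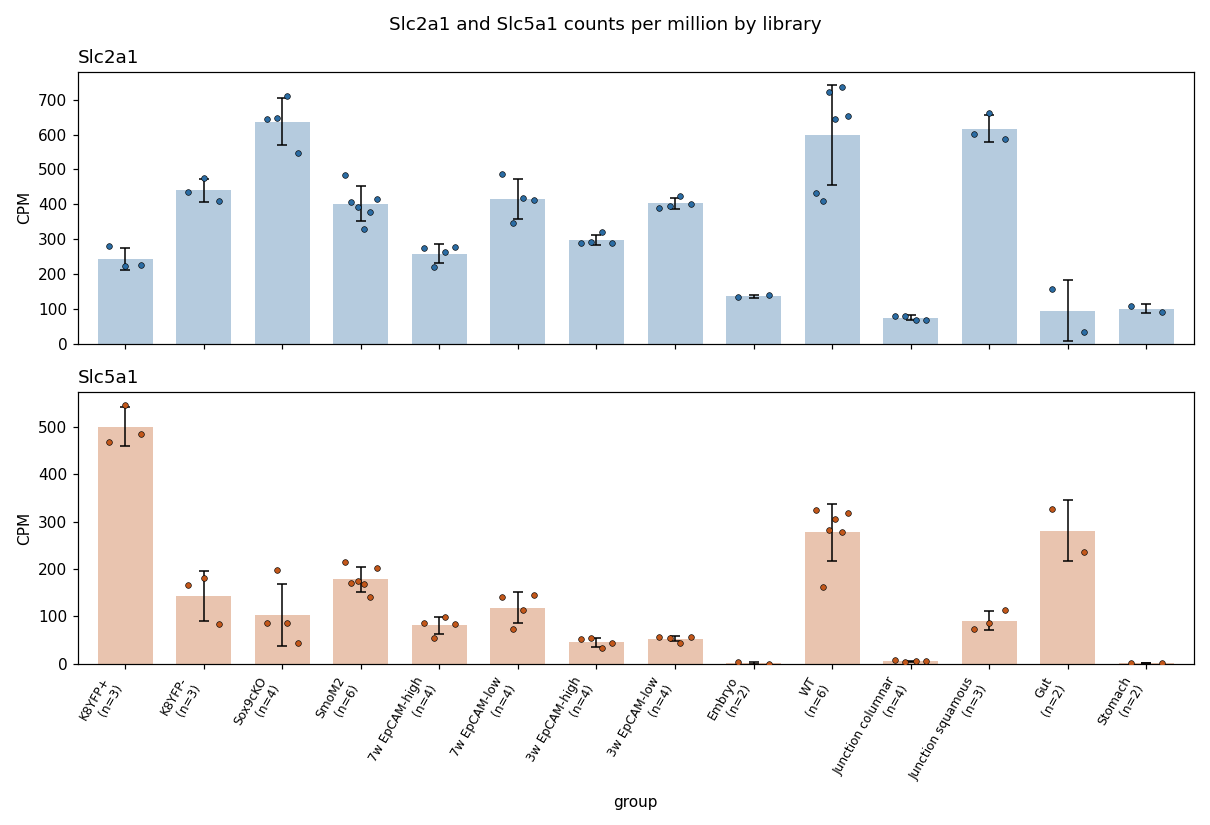
CPM of Slc2a1 (upper panel) and Slc5a1 (lower panel) in each library (points) of the 14 groups, with bars for the mean and whiskers for the SD between libraries. Slc5a1 is highest in K8YFP+ (mean 500.0 CPM), where Slc2a1 is the lowest of the oesophageal groups other than the embryo (243 CPM).

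In order of mean, Slc5a1 stood at 500.0 ± 40.6 CPM (SD) in K8YFP+, 281 ± 64.0 in gut, 278 ± 60.03 in WT, 179 ± 26.6 in SmoM2 and 144 ± 53.0 in K8YFP-. Below these came 7w EpCAM-low (119 ± 32.5), Sox9cKO (103 ± 66.1), junction squamous (91.3 ± 19.6), 7w EpCAM-high (81.1 ± 18.3), 3w EpCAM-low (53.0 ± 5.61) and 3w EpCAM-high (46.1 ± 9.57). Junction columnar (5.99 ± 1.16), stomach (2.09 ± 0.747) and embryo (1.84 ± 1.70) ended the order. K8YFP+ was separated from its neighbour, as were 3w EpCAM-high from junction columnar and junction columnar from stomach. All other neighbours in this order overlap in their libraries.

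Slc2a1 lay lower in K8YFP+ cells, where Slc5a1 lay higher. It read 281, 223 and 226 CPM in K8YFP+ cells, against 435, 476 and 411 CPM in K8YFP- cells, with no overlap. The ratio of mean CPM was 0.553, a wider gap than the TMM-scaled fold gives. The log2 fold of -0.46 ± 0.13 passed only just (adjusted p = 0.0455). It failed when any of the 6 libraries was left out, with folds of -0.59 to -0.44 and an adjusted p of 0.0507 to 0.124, and with all 14 groups fitted together (-0.57, 0.092). All these folds are below 0. None of these fits takes the replicate numbers as pairs, and with the replicate number as a block the call was kept. The per-length ratio of Slc5a1 to Slc2a1, which is free of library scaling, was 1.42 to 2.09 in K8YFP+ and 0.173 to 0.329 in K8YFP-. In the other oesophageal groups it was 0.318 to 0.436 in SmoM2 and 0.322 to 0.639 in WT, and only gut, at 1.77 and 6.14, was as high as K8YFP+.

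In SmoM2 cells Slc2a1 read 331 to 484 CPM (median 399.8), against 409 to 736 CPM in WT (median 649). The ranges overlap, because WT 1 and 2 had 432 and 409 CPM while WT 3 to 6 had 644 to 736. The log2 fold was -0.70 ± 0.15 (adjusted p = 0.00152), and -0.63 ± 0.17 with the WT pairs summed (adjusted p = 0.00971). With WT 1 and 2 alone it was -0.26 and did not pass (adjusted p = 0.234), and with WT 3 to 6 alone it was -0.92 (adjusted p = 2.83e-05). The size of this difference thus rests on which WT libraries are used, and WT libraries of both kinds differ from SmoM2 in the leading number of their names.

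The time series behaved likewise toward WT and also separated the gates. At 7w EpCAM-high cells had 275, 220.2, 262 and 278 CPM of Slc2a1, against 486, 347, 419 and 413 CPM in EpCAM-low cells. At 3w they had 289.7, 293, 319 and 289 CPM, against 391, 395, 423 and 400.2 CPM. The gates do not overlap at either week, with folds of EpCAM-high over EpCAM-low of -0.49 ± 0.14 at 3w (adjusted p = 0.0219) and -0.73 ± 0.14 at 7w (0.000352). The 3w call failed when EpCAM-high 1, 2 or 4 or EpCAM-low 3 was left out (adjusted p 0.0511 to 0.0579) and with all 14 groups fitted together (0.24). It was kept with the replicate number as a block. The 7w call held without each library in turn. The weeks did not differ past the threshold, at -0.25 ± 0.14 in EpCAM-high (adjusted p = 0.164) and -0.01 ± 0.14 in EpCAM-low cells (0.966, interval -0.29 to 0.27).

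Set against WT, Slc2a1 was lower by log2 folds of -1.12 ± 0.14 in 3w EpCAM-high, -1.37 ± 0.14 in 7w EpCAM-high, -0.63 ± 0.13 in 3w EpCAM-low and -0.64 ± 0.13 in 7w EpCAM-low cells, all passing. With WT 1 and 2 alone the EpCAM-high folds still passed, at -0.65 and -0.89, and the EpCAM-low folds did not, at -0.16 and -0.17 (adjusted p = 0.238 and 0.261). The EpCAM-low cells are those with the gate of WT.

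Sox9cKO cells were higher than SmoM2 cells in Slc2a1. The Sox9cKO libraries had 645, 648, 709 and 547 CPM, all above the SmoM2 range of 331 to 484 CPM. The fold was 0.71 ± 0.14 (adjusted p = 0.0176). Without the library labelled Sox9cKO 3, the highest of the 4, it was 0.64 and did not pass (adjusted p = 0.063), and with the replicate number as a block it was 0.71 (0.0759). Same-numbered Sox9cKO and SmoM2 libraries did not all deviate together (correlation -0.143 to 0.267), so this block need not stand for pairs. The mean of 637 CPM was close to that of WT, at 599 CPM.

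At the junction Slc2a1 was lower in columnar cells, at 80.9, 79.5, 67.2 and 69.6 CPM, than in squamous cells, at 601, 661 and 588 CPM (log2 fold -3.36 ± 0.10, adjusted p = 2.57e-10). K8YFP+ cells lay between these, above junction columnar by 2.13 ± 0.25 and above stomach by 1.47 ± 0.31. Stomach had 109.6 and 91.8 CPM. Gut was split, with 158 CPM in Gut 1 and 32.8 CPM in Gut 2, and the fold of gut over stomach changed sign with the library used (0.24 ± 0.33 with both, -1.53 without Gut 1 and 1.03 without Gut 2). Likewise K8YFP+ over gut was 1.23 ± 0.31 and passed (adjusted p = 0.000866), but was 0.48 without Gut 2 (0.121), and in a fit of these groups alone had an adjusted p of 0.186. Gut 2 also held more gastric (399 CPM) and fewer enterocyte markers (2808 CPM) than Gut 1 (21.4 and 9516 CPM), and the part of this was not tested. Embryonic cells had 133 and 139 CPM (-2.67 ± 0.30 against WT, adjusted p = 3.73e-10).

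By mean, Slc2a1 ran from Sox9cKO (637 ± 67.2 CPM), junction squamous (616 ± 39.1) and WT (599 ± 143) through K8YFP- (441 ± 33.0), 7w EpCAM-low (416 ± 57.1), 3w EpCAM-low (402 ± 14.5) and SmoM2 (401 ± 50.4). Lower down came 3w EpCAM-high (298 ± 14.5), 7w EpCAM-high (259 ± 26.6), K8YFP+ (243 ± 32.6), embryo (136 ± 4.07), stomach (101 ± 12.6), gut (95.2 ± 88.3) and junction columnar (74.3 ± 6.89). The first 7 groups overlap from neighbour to neighbour, and the first gap falls between SmoM2 and 3w EpCAM-high. Reads of Slc2a1 cannot be told apart in full from those of the antisense gene Gm12868 (ENSMUSG00000085505), which shares 105 exon bases, 2.99% of the exons of Slc2a1, on the other strand. Gm12868 had 22364 counts over all libraries and whether the counting used strand is not given in the sources used here.

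Slc2a2 was highest in gut. Gut had 12.8 and 36.6 CPM (36 and 133 counts), the higher value in Gut 2, where the enterocyte markers were lower. Stomach had 1 count in all, giving a count ratio of gut to stomach of 284 with a 95% interval of 50.3 to 11282.5 that covers counting error only. Junction columnar cells had 0.461, 1.70, 3.03 and 4.16 CPM, and the squamous side had no count, so that columnar cells were at least 15.5-fold higher against a floor of 3 counts over the group (10.05-fold without junction squamous 3). Neither K8YFP+ nor K8YFP- cells had a count, and neither did SmoM2, Sox9cKO, 7w EpCAM-high or WT cells. Over the K8YFP+ group 0 counts allow a level of up to 0.247 CPM, and K8YFP+ cells were at least 99.96-fold lower than gut and at least 9.45-fold lower than junction columnar cells. The bound against gut was 51.9-fold without Gut 2 and 44.7-fold without K8YFP+ 1, the deepest library of its group, and that against junction columnar 4.23-fold without K8YFP+ 1. Embryonic cells had 8 counts and WT none, at least 6.55-fold higher in the embryo. In the fit of all groups Slc2a2 came through the filter on low counts only by gut and junction columnar libraries, so this difference is given as a description. Its call was lost with WT 1 and 2 alone (adjusted p = 0.0842) and with the replicate number as a block (0.0916). Same-numbered embryo and WT libraries did not deviate together (correlation -0.114 to 0.0269), so this block need not stand for pairs.

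Slc2a5, the fructose carrier, was highest in gut, followed by the other columnar tissues. Gut had 16.8 and 14.9 CPM, and stomach 4.33 and 1.57 CPM (log2 fold 2.59 ± 0.56, adjusted p = 0.00034). Slc2a5 came through the filter on low counts only by gut, junction columnar and stomach libraries, so its folds are given as a description. Junction columnar cells had 3.23, 5.28, 7.23 and 5.24 CPM, and junction squamous cells 1 count in all, a count ratio of 100.4 with a counting interval of 17.7 to 4002. Embryonic cells had 0.739 and 1.10 CPM (2.86 ± 0.70 over WT, adjusted p = 0.000554, and 0.0522 with the replicate number as a block). As for Slc2a2, this block need not stand for pairs. No other group had more than 5 counts. K8YFP+ cells had none and were at least 63.9-fold lower than gut, 21.2-fold lower than junction columnar and 11.9-fold lower than stomach cells. Without K8YFP+ 1 these bounds were 28.6, 9.48 and 5.33-fold, and without Stomach 1 that against stomach was 6.33-fold.

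Slc2a3 stood out in 1 embryonic library. Embryo 1 had 74.8 CPM (810 counts) and Embryo 2 had 2.29 CPM (25 counts), against 0.244 to 0.961 CPM in WT. The fold of 5.42 ± 0.54 over WT passed (adjusted p = 9.44e-12), but without Embryo 1 it was 1.25 and did not (0.0717). Neural markers summed to 89.4 CPM in Embryo 1 and 178 in Embryo 2, and enterocyte markers to 160.4 CPM in Embryo 1 and 11.3 in Embryo 2. Their part in the difference was not tested. In the other 13 groups the mean of Slc2a3 was 0.13 to 1.32 CPM, and it was too low to be tested in 13 of the 18 comparisons.

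**Figure D4:**
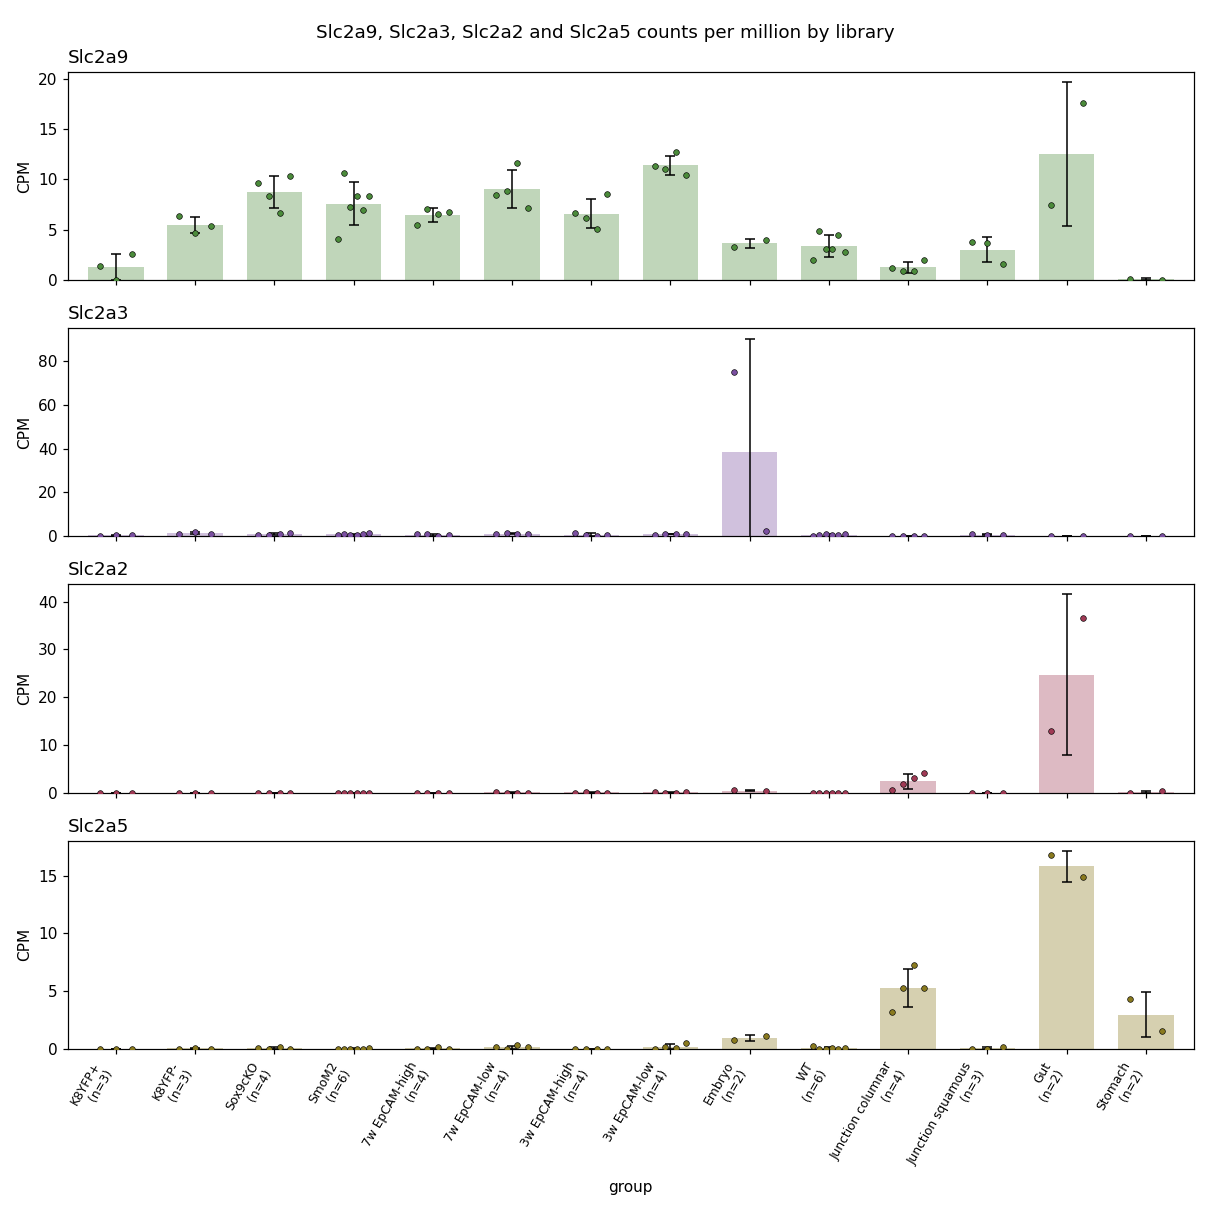
CPM of Slc2a9, Slc2a3, Slc2a2 and Slc2a5 (panels from top to bottom) in each library (points), with bars for the group mean and whiskers for the SD between libraries. Slc2a2 and Slc2a5 are highest in gut, Slc2a3 has 1 high embryonic library (74.8 CPM), and Slc2a9 is spread over most groups.

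Slc2a9, the urate carrier, was low but present in most groups, and it moved opposite to Slc5a1 and Slc2a1 in SmoM2 cells. It read 4.11 to 10.6 CPM in SmoM2 (median 7.78), against 1.95 to 4.85 CPM in WT (median 3.08). Only SmoM2 1, which differs from the other SmoM2 libraries in the leading number of its name, falls within the WT range. The log2 fold was 1.04 ± 0.24 (adjusted p = 0.00217). It was 0.99 ± 0.27 with the WT pairs summed (adjusted p = 0.0107) and 0.96 with WT 1 and 2 alone (0.0763). In the time series the folds over WT were 0.86 ± 0.20 in 3w EpCAM-high, 1.70 ± 0.19 in 3w EpCAM-low, 0.77 ± 0.20 in 7w EpCAM-high and 1.30 ± 0.20 in 7w EpCAM-low cells. All 4 passed, also with WT 1 and 2 alone, and all their libraries lie above those of WT.

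Slc2a9 levels lay lower in reporter-positive and EpCAM-high libraries, a difference that passed at 3w alone. K8YFP+ cells had 9, 0 and 10 counts (1.34, 0 and 2.62 CPM), against 6.33, 4.71 and 5.38 CPM in K8YFP- cells, which do not overlap. The fold of -1.49 ± 0.57 did not pass (adjusted p = 0.101), though it did with no filter on low counts (0.0446) and with all 14 groups fitted together (0.00294). With the replicate number as a block it did not pass. At 3w EpCAM-high cells had 6.66, 6.18, 5.03 and 8.54 CPM, and EpCAM-low cells 11.4, 11.0, 12.7 and 10.5 CPM (-0.84 ± 0.20, adjusted p = 0.00536). At 7w they had 5.45, 7.03, 6.61 and 6.72 CPM, against 8.44, 8.89, 11.6 and 7.17 CPM. These do not overlap either, and the fold of -0.53 ± 0.21 fell short of the threshold (adjusted p = 0.0541).

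In the other tissues Slc2a9 was highest in gut (7.49 and 17.6 CPM) and almost absent from stomach, with 1 count and a count ratio of 143 (counting interval 25.0 to 5707). K8YFP+ cells had a log2 fold of -3.05 ± 0.43 against gut (adjusted p = 7.49e-08) and a count ratio of 16.9 against stomach (2.69 to 704). At the junction columnar cells had 0.851 to 1.99 CPM and squamous cells 1.57 to 3.76 CPM, which overlap, with a fold of -1.55 ± 0.42 (adjusted p = 0.00546). There Slc2a9 came through the filter on low counts by its level in squamous cells, so this fold is given as a description. Sox9cKO cells had 6.71 to 10.3 CPM, within the SmoM2 range (0.25 ± 0.21, adjusted p = 0.54), and the embryo 3.32 and 3.94 CPM, within that of WT (-0.41 ± 0.32, adjusted p = 0.259). In order of mean all neighbours overlap except K8YFP- over embryo and junction columnar over stomach.

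**Figure D5:**
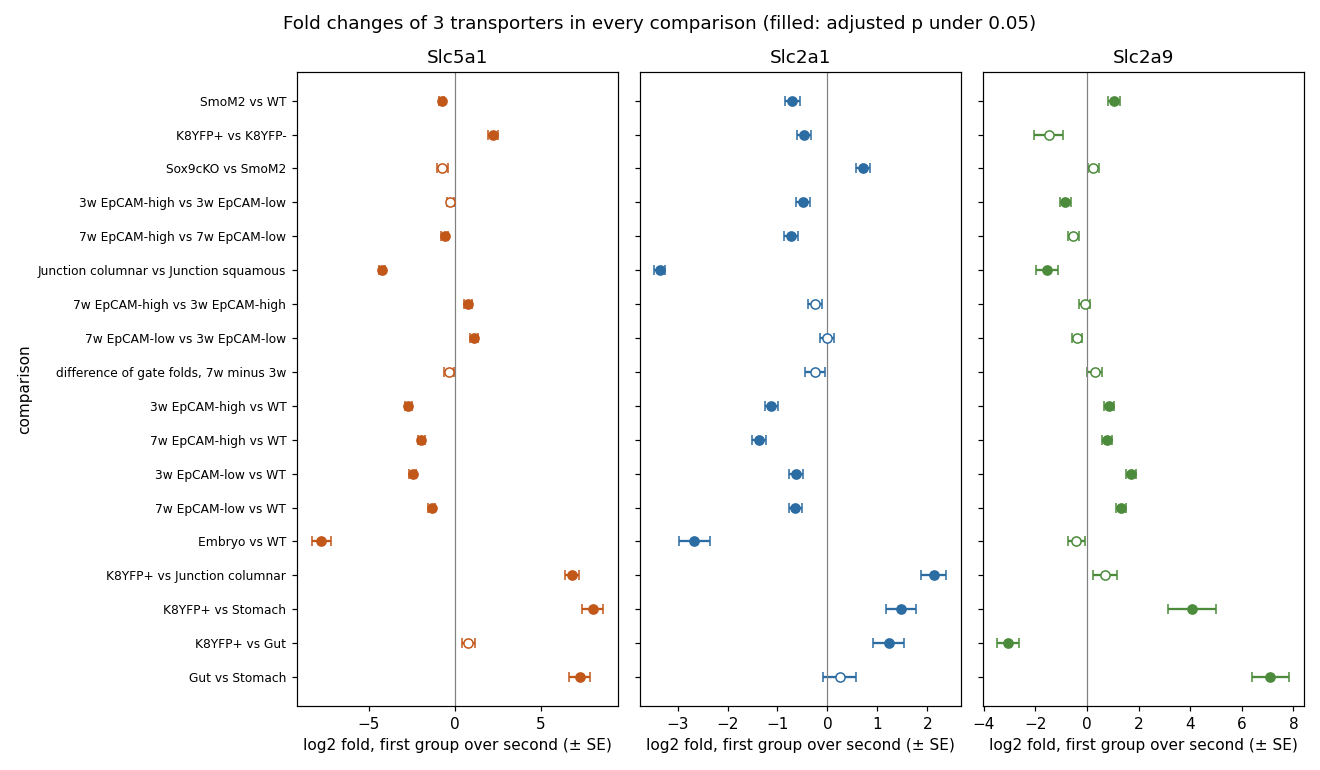
Log2 folds with SE (horizontal axis) of Slc5a1, Slc2a1 and Slc2a9 in the 18 comparisons (vertical axis), filled where the adjusted p was under 0.05. In SmoM2 vs WT and the 4 time-series groups vs WT the folds of Slc5a1 and Slc2a1 lie left of 0 and those of Slc2a9 right of 0.

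Genes with the most similar pattern were found by Pearson's r of log2(CPM + 1) means over the 14 groups, among 14159 genes, as a description only. For Slc5a1 they were Casp1, which encodes an inflammatory protease (r = 0.95), Xdh, the xanthine dehydrogenase gene of urate synthesis (0.95), and Mall (0.95). For Slc2a1 they were the overlapping Gm12868 (0.99), Popdc3 (0.97) and the basal keratin gene Krt14 (0.96). For Slc2a9 they were Inf2, 1700017B05Rik and Gm17334 (0.91, 0.91 and 0.87). Those of Slc2a2 (Tnfsf10, Snx20, Gm5431), Slc2a5 (Kiss1, Golt1a, Gm28040) and Slc2a3 (Rrad, Gm13861, Gm42442) have their highest mean in the same group as the carrier.

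Genes that act with these carriers went both ways in K8YFP+ over K8YFP- cells. Atp1b1, which encodes a subunit of the sodium pump that keeps up the gradient SGLT1 uses, rose (log2 fold 2.10 ± 0.57, adjusted p = 0.0371). Over all genes 13.1% rose and 6.83% fell. Of 19 glycolytic genes tested 4 rose, among them the regulator Pfkfb3 (1.87 ± 0.24) and the aldolase gene Aldoc (1.37 ± 0.21), and 1 fell. The list's median was 0.14, against -0.03 over all genes. Of 11 hypoxia-inducible genes 2 rose, Ndrg1 (1.32 ± 0.16) and the oxygen sensor gene Egln3 (1.97 ± 0.29), and P4ha1 fell (-0.59 ± 0.16). Of 8 regulators of glucose uptake Arrdc4 (1.26 ± 0.21) and Mlx (0.76 ± 0.21) rose, and Xdh (1.78 ± 0.25) was the 1 of 2 tested urate genes to rise.

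In SmoM2 over WT cells, where 26.2% of all genes rose and 23.3% fell, glycolytic genes were split, with 6 of 20 higher and 8 lower (median -0.09, all genes 0.01). Ldhb, a lactate dehydrogenase subunit gene, rose by 5.20 ± 0.27, while the hexokinase gene Hk1 fell by 0.64 ± 0.09 and the phosphofructokinase gene Pfkp by 1.11 ± 0.13. Of 11 hypoxia-inducible genes 5 fell, including Hif1a (-1.21 ± 0.17), and 1 rose (median -0.43). Txnip, which encodes an inhibitor of glucose uptake that acts on GLUT1, rose by 1.956 ± 0.21, as did 3 of the other 7 uptake regulators, and 2 fell. Atp1b1 also rose (2.16 ± 0.25). In Sox9cKO over SmoM2 cells, where 2.66% of all genes passed, no tested glycolytic (20), hypoxia-inducible (11) or uptake-regulating gene (8) did. Atp1b1 fell there by 2.51 ± 0.31.

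Between the gates Hk1 was lower in EpCAM-high than in EpCAM-low cells (-0.47 ± 0.07 at 3w and -0.68 ± 0.07 at 7w) and Ldhb higher (1.15 ± 0.25 and 2.67 ± 0.27). Of 20 glycolytic genes 6 fell at each week, with 1 higher at 3w and 3 at 7w (median -0.11 at both). Over all genes 7.84% fell at 3w and 16.8% at 7w, and 7.37% and 15.5% rose. Hif1a fell at both weeks (-0.84 ± 0.14 and -0.77 ± 0.14). In junction columnar over squamous cells 13 of 22 glycolytic genes fell, among them Hk2 (-3.24 ± 0.12) and Pkm (-1.55 ± 0.09), and 5 rose (median -0.52, all genes 0.08), where 35.2% of all genes fell and 39.2% rose. There Txnip rose by 4.01 ± 0.16, while Khk, the fructokinase gene, fell by 0.88 ± 0.22.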

How the data were processed

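Total RNA from sorted cells was sequenced as NuGEN Ovation Solo libraries on an Illumina NovaSeq, per the labels' protocols. The deposited values are raw read counts per Ensembl gene in 51 libraries, made by the authors with STAR 2.5.3a and HTSeq on GRCm38/mm10, per the submitters' processing notes, which also name edgeR. Neither the annotation release nor whether counting used strand is given in the sources used here. Of 52636 genes, 10741 had no count, and 52489 identifiers were matched to GENCODE M21 for coordinates and exon lengths. Unused sample columns numbered 0.

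CPM were counts over the library total, and RPKM used the union of exons. Tests used edgeR 4.0.16 in R 4.3.3 (quasi-likelihood F test, two-sided, TMM scaling, filterByExpr with a minimum count of 10 and total of 15), with Benjamini-Hochberg adjustment over all genes tested. SmoM2 vs WT, K8YFP+ vs K8YFP-, Sox9cKO vs SmoM2 and the junction were fitted alone. Time-series comparisons came from 1 fit of 22 libraries, and comparisons with embryo, gut or stomach, and of K8YFP+ with junction columnar cells, from 1 fit of all 51, which lends groups of 2 libraries the spread of the others. The code was tested on simulated data. In bounds and count ratios the floor is 3 counts over a group, and the intervals of count ratios are exact 95% binomial ones that cover counting error only.

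The genes, the lists of related and marker genes and the comparisons were chosen with earlier results of these data known. Named list genes are up to 3 called genes with the smallest p in each list and main comparison. Likeness names 3 genes per carrier, each with a mean of at least 10 CPM in some group. The carrier itself needed a mean of at least 5 CPM in some group. Same-numbered libraries deviated together for K8YFP+ and K8YFP- (r 0.291 to 0.409) and for EpCAM-high and EpCAM-low at 3w (0.165 to 0.295), both above 0.1, so these numbers are taken to pair the samples. The main tests leave this pairing out, and only the replicate block takes it in. Alternatives tried were DESeq2 1.42.0, RLE scaling, an unfiltered table, another set of groups in the fit, the replicate block, each library left out, summed WT pairs and TMM-scaled levels. Splitting the WT libraries was chosen after seeing the data. Some genes of these lists are not reported here.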

Additional observations from a re-analysis of the deposited data

Results flagged for a closer look

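Among the 28 sets of 4 to 6 libraries with a mean of at least 1 CPM, 3 held a library far from the others by Dixon's test at the 95% level, which chance does in about 1 of 20 such sets. Slc5a1 read 161 CPM in WT 2, while the other 5 WT libraries had 277 to 324 CPM. This flag takes the WT libraries as separate, though WT 3 to 6 may be repeat runs of 2 samples. Slc2a1 read 319 CPM in 3w EpCAM-high 3, with 289 to 293 CPM in the other 3 libraries of its group. Slc2a3 read 0.759 CPM in 3w EpCAM-low 1, below the other 3 libraries at 1.07 to 1.13 CPM, and rests on 5 counts.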

How the results depend on the processing

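The number of genes called stayed within 1.5 times the main count under most settings. For K8YFP+ vs K8YFP- it was 3110, 4785 with the replicate block, 6733 with all 14 groups fitted together and 1016 to 2263 with a library left out (1016 without K8YFP- 3, 1749 without K8YFP+ 3 and 2045 without K8YFP- 2). For Sox9cKO vs SmoM2 it was 454, 767 with no filter on low counts, 1205 in DESeq2, 125 with the replicate block, 1524 with all 14 groups fitted together, and 207 (without Sox9cKO 3) to 2153 (without Sox9cKO 2) with a library left out, with 219 without Sox9cKO 1 and 230, 263 and 250 without SmoM2 2, 3 and 5. The fit of all 14 groups gave 1378 genes for the 3w gates (2625) and 42 for the difference between gate folds (398). Fits of the compared groups alone gave 7287 for K8YFP+ vs Stomach (11270), 5904 for K8YFP+ vs Gut (11030) and 2398 for Gut vs Stomach (6938), with fewer genes tested.

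Folds near 0 changed sign, and none of them had passed with all libraries: Slc2a1 in 7w vs 3w EpCAM-low (-0.01, but 0.0185 with no filter, 0.0123 with all 14 groups, and -0.0807 to 0.0801 with a library left out), Slc2a9 in 7w vs 3w EpCAM-high (-0.197 to 0.0642), Slc2a1 in Gut vs Stomach (-0.16 with the replicate block, -1.53 to 1.03) and Slc2a3 there (-3.61 to 3.59). The block ended or made no other transporter call than those given above. Of 407 transporter folds under settings other than leaving a library out, 389 kept direction and side of the threshold. Under RLE scaling the median over all genes shifted by 0.104 (log2) in Embryo vs WT and by less than 0.1 elsewhere. TMM-scaled levels moved 7 of 84 group means by more than 1 SD, Slc5a1 in K8YFP+ to 563 CPM. Depth limits Slc2a2, Slc2a3 and Slc2a5 most: 3 counts are 0.466 CPM over gut and 0.247 over K8YFP+. The causes were not tested.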

Other observations

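Other sugar carriers of the same families had patterns of their own. Slc5a9, which encodes SGLT4, a sodium-coupled mannose and fructose carrier, averaged 134 CPM in K8YFP+ and 66.3 in K8YFP- cells (log2 fold 1.40 ± 0.18, adjusted p = 0.00367), so that both sodium-coupled carriers Slc5a1 and Slc5a9 were higher in reporter-positive cells. Unlike Slc5a1, it was higher in SmoM2 (69.0 CPM) than in WT (26.6 CPM; 1.25 ± 0.17, adjusted p = 2.98e-05) and higher in EpCAM-high than in EpCAM-low cells at 3w (1.44 ± 0.22) and 7w (1.76 ± 0.20). The difference between the 2 genes was not tested. Per exon length it averaged 2.13 RPKM in gut, where Slc5a1 averaged 68.4 RPKM, and in junction columnar cells it fell by 3.51 ± 0.18 relative to squamous cells.

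Among the other SLC2 genes, Slc2a13, the proton-coupled myo-inositol carrier HMIT, had 614 counts over the SmoM2 group against 3 in WT (count ratio 176, counting interval 59.9 to 856). It came through the filter on low counts only by its level in SmoM2 cells, so this ratio is given as a description. Slc2a8 (log2 fold 1.86 ± 0.21) and Slc2a12 (0.89 ± 0.21) rose in SmoM2 cells. Over all genes 26.2% rose and 23.3% fell in SmoM2 against WT. Slc2a10 stood at 27.6 CPM in junction columnar, 62.7 in stomach and 9.38 in gut, and had no count in junction squamous cells. Slc2a7 averaged 21.3 CPM in gut and at most 0.197 CPM in any other group.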
